A study of Mus musculus with 23 samples.

Results

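Cells entering DNA replication were followed among blood stem and progenitor cells of the mouse that had been recovered from transplant recipients. They were chosen by their own counts: a cell had to show at least 1 UMI (a unique molecular identifier, which marks 1 captured RNA molecule) of at least 5 of 8 genes of the G1/S transition (Ung, Dtl, Chek1, E2f1, Mcm10, Cdc6, Cdc45 and Clspn) and of fewer than 5 of 8 genes of G2 and mitosis (Ccnb1, Ccnb2, Cenpa, Cdc20, Ube2c, Aspm, Cenpe and Knstrn). The rule was applied to the cells kept in 5 transplant libraries, that is to barcodes that held 1000 or more UMIs and 500 or more genes and had no more than 10% of their UMIs from mitochondrial genes. It found 5947 G1/S cells among 28485 kept cells (20.9%), from 43996 deposited barcodes.

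The cells are marrow cells of CD45.2 donors that carry c-Kit and Sca1 and lack lineage antigens (KSL). They were sorted 18 weeks after 500000 donor marrow cells had been given with 500000 CD45.1 competitor cells to lethally irradiated recipients. The transplant groups were Control (1 library), Ezh2 KO (2 libraries) and Jarid2 KO (2 libraries), and every group, Control included, carried Mx1-Cre. Mx1-Cre is driven by an interferon-inducible promoter and acts in many blood and some other cells. The floxed alleles are Ezh2 or Jarid2. A second experiment without transplantation (baseline) holds KSL cells of mice 2 months old, with 1 male and 1 female library in each of the same 3 groups, also with Mx1-Cre. The rule found 7133 such cells among 50460 kept there, and these libraries played no part in the choice of the transplant cells. Nothing in the labels says whether replicate libraries came from separate recipients, so p-values measure only the spread between these libraries.

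A cell commits to division late in G1, when cyclin D and cyclin E kinases inactivate the retinoblastoma protein and release the E2F factors. E2F then switches on the genes that license replication origins, make nucleotides and copy DNA, and licensed origins fire as the cell enters S phase. Most blood stem cells rest outside the cycle, and the progenitors that they feed divide often. Ezh2 is the catalytic subunit of Polycomb repressive complex 2 (PRC2), which methylates histone H3 at lysine 27 and keeps developmental genes silent. Jarid2 is an accessory subunit that helps PRC2 reach its targets.

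The genes of the rule marked the cells as the rule required, so the following values describe the choice and are no finding. Dtl, part of the ligase that destroys the licensing factor Cdt1, had a UMI in 94.4% to 96.8% of G1/S cells per library, against 34.5% to 39.8% of the remaining cells, that is kept cells that were neither at G1/S nor G2/M cells (at least 5 G2/M genes, 7296 cells). Clspn, the adaptor through which the kinase Chek1 is switched on, had one in 88.2% to 91.2% against 16.2% to 23.1%. Ung, which removes uracil from DNA, had one in 82.0% to 90.4% against 20.5% to 28.3%. Of the G1/S cells, 1646 showed exactly 5 of the 8 genes, 1792 showed 6, 1658 showed 7 and 851 showed all 8. Just outside the rule were 1598 kept cells with 4 of the genes, and 2802 cells with enough G1/S genes that were left out for 5 or more G2/M genes. At the other edge, 1194 members had 4 G2/M genes and 525 had none.

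Depth and sex differed between the libraries. The median G1/S cell held 17326 to 24065 UMIs and 4323 to 4867 genes, against 10452 to 14966.5 UMIs in the other kept cells, and the sum over the G1/S cells of a library was 20543497 to 31718589 UMIs. With each cell thinned to 8000 UMIs, the G1/S cells had 2653 to 2831 genes and the other cells 2679 to 2860. Between 25.7% and 43.4% of deposited barcodes exceeded the mitochondrial limit. Cells with Xist UMIs but none of Y-linked genes, here called female, were 66.4% of the Control G1/S cells, 0% and 0.0843% of those of Ezh2 KO, and 53% and 51.3% of those of Jarid2 KO, and the labels give no sex for these libraries. The libraries shared 5 to 15 kept barcodes per pair, and 0 or 1 G1/S cell. Ribosomal protein genes took 25.8% of the UMIs of Jarid2 KO 2 against 28% to 32.6% in the rest.

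Beyond the genes of the rule, the G1/S cells held more RNA for the machinery of replication than the remaining cells. All 20 genes of origin licensing and helicase, all 26 of the replication fork and polymerases and all 16 of nucleotide synthesis were above the remaining cells in each of the 5 libraries, as were 23 of 24 genes of the replication checkpoint and repair. These genes vary with those that chose the cells, so the levels are given as a description without a test. Cyclin E, the kinase partner that drives S-phase entry, stood out: Ccne1 was 3.31 to 5.59 times and Ccne2 3.17 to 5.99 times the level in the remaining cells. Rrm2, the ribonucleotide reductase subunit that limits the supply of deoxynucleotides, was 3.82 to 6.34 times higher, and the thymidine kinase Tk1 3.42 to 5.50 times. Mcm2, a subunit of the replicative helicase, was 1.60 to 1.95 times higher and Pcna, the sliding clamp of the polymerases, 1.95 to 2.36 times. Uhrf1, which recruits the maintenance DNA methyltransferase to new DNA, was 3.01 to 3.88 times higher.

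**Figure D1:**
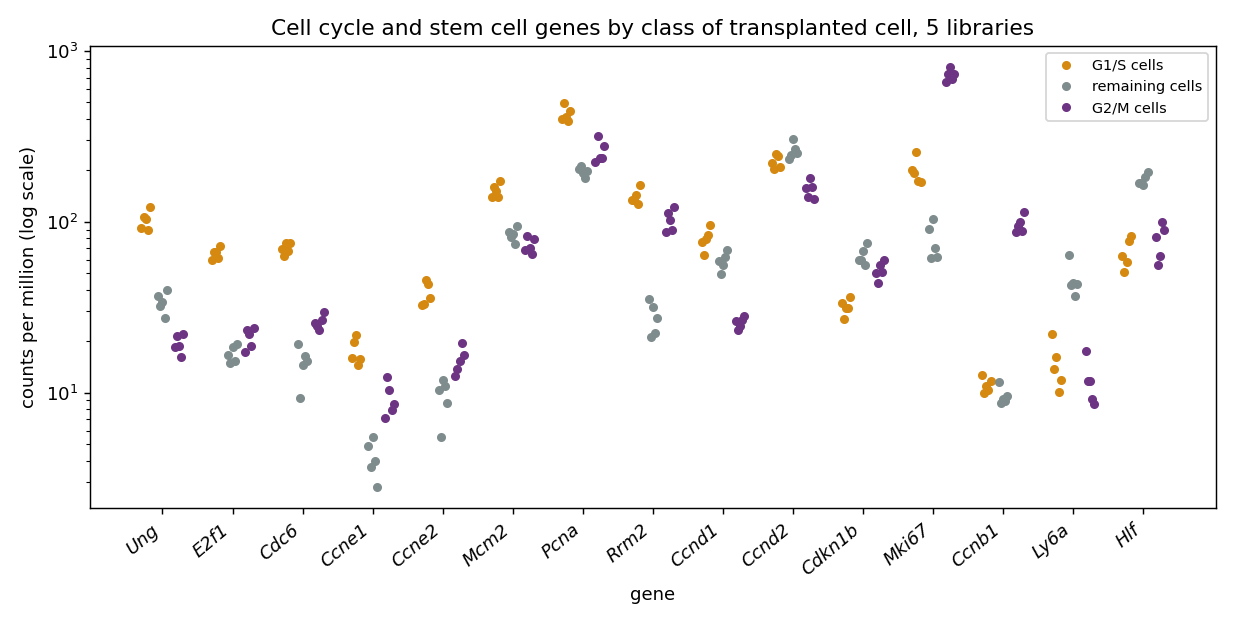
CPM (the count for every 1000000 UMIs summed, log axis) of 15 cell cycle and stem cell genes in the 5 transplant libraries, summed over G1/S cells, over G2/M cells (at least 5 G2/M genes) and over the remaining cells, with 1 point per library. Ccne1, Ccne2 and Rrm2 are highest in G1/S cells, Mki67 and Ccnb1 in G2/M cells, and Cdkn1b, Ly6a and Hlf in the remaining cells.

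The D-type cyclins behaved differently from cyclin E. Ccnd1, which carries mitogen signals to the retinoblastoma protein, was 1.29 to 1.42 times the level in the remaining cells and 2.77 to 3.40 times that in the G2/M cells. Ccnd2, its close relative, was 0.818 to 0.947 times the level in the remaining cells. Among the inhibitors of cyclin-dependent kinases, Cdkn1b (p27) was at 0.448 to 0.559 times the level in the remaining cells, and Cdkn1a (p21) at 1.16 to 1.40 times. Genes of G2 and mitosis were above the remaining cells for 23 of 25 and below the G2/M cells for all 25. Mki67, the common proliferation marker, was 2.23 to 3.16 times the level in the remaining cells but 0.236 to 0.318 times that in the G2/M cells, and the mitotic kinase Plk1 was at 0.0844 to 0.130 times the latter.

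The G1/S cells carried less RNA of stem cell genes and more of granulocyte genes than the remaining cells. Of 20 genes of quiescence and stem cells, 18 were below the remaining cells in all 5 libraries. Hlf, a transcription factor of stem cells, was at 0.299 to 0.424 times their level, Mecom at 0.408 to 0.540 times and Procr, the surface receptor used to sort stem cells, at 0.162 to 0.308 times. Ly6a, which encodes the sort antigen Sca1, ran from 10.1 to 22.1 CPM in G1/S cells and from 37.0 to 64.3 CPM in the remaining cells. Kit, the other sort antigen, was at 0.679 to 0.763 times their level. Of 12 granulocyte and monocyte genes, 9 were above the remaining cells in every library, among them Mpo (myeloperoxidase, 1.31 to 2.02 times) and Elane (neutrophil elastase, 1.34 to 2.41 times). Against the G2/M cells, 8 of the 20 stem cell genes were above and 3 below in all 5 libraries, and 2 of the 12 granulocyte genes were above and 6 below. By contrast with the remaining cells, 17 of 19 interferon-response genes and 10 of 12 early lymphoid genes were below. G1/S cells were also deeper, as given above. Free RNA reaches every droplet, and granulocyte genes (at least 3 of 12) were detected in 100% of transplant G1/S cells, and at 8000 UMIs in 93.8% to 100% of G1/S cells with B-lineage genes and in 97.5% to 100% of cells with at least 5 megakaryocyte genes. The part of free RNA in these levels was not tested.

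E2F binding motifs were looked for in the promoters, because E2F drives the genes of this transition. RefSeq promoter windows (GRCm38.p6, 250 bases before to 50 after the start of a gene) were searched on both strands for TTTCGCGC, TTTGGCGC and TTTCCCGC. A window held a motif in 606 of 32851 cases (1.84%). Counted by gene symbol, as the lists are, the share was 2.12% of 27025. A motif was found in 3 of the 8 G1/S genes of the rule and in none of the 8 G2/M genes. The windows that follow show the motif of these 3 genes in capitals with 11 bases on each side, read 5′ to 3′ on the strand of the gene, and that of Ezh2, which held one as well.
Dtl, chr1:191575534-191575563, minus strand: cgtgacgtcagTTTGGCGCggagtttggcg
Cdc6, chr11:98908002-98908031, plus strand: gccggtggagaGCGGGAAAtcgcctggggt
Clspn, chr4:126556990-126557019, plus strand: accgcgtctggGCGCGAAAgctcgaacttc
Ezh2, chr6:47595009-47595038, minus strand: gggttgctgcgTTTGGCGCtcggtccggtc
With the first transcribed base as 1, the printed motif began at -8 in Dtl, -138 in Cdc6, 22 in Clspn and 4 in Ezh2. In Cdc6 and Clspn it lay on the opposite strand, so its reverse complement is printed. Among genes with a window, 8 of 15 of origin licensing, 9 of 23 of the replication fork, 7 of 18 of G1 cyclins and E2F, 4 of 15 of checkpoint and repair, 1 of 20 of G2 and mitosis, and none of 15 of nucleotide synthesis, 8 of B lineage or 10 of granulocytes held a motif. A match is a run of letters and not a measured binding site.

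The share of cells at G1/S did not separate the genotypes. Among kept cells it was 21.5% in Control (exact binomial 95% interval 20.3% to 22.7%), 21.2% (20.2% to 22.2%) and 18.8% (17.8% to 19.7%) in Ezh2 KO, and 21.1% (20.0% to 22.2%) and 22.3% (21.2% to 23.4%) in Jarid2 KO. These intervals cover counting error only. The Ezh2 KO mean was 20.0% ± 1.69 (SD, n = 2) and the Jarid2 KO mean 21.7% ± 0.822 (SD, n = 2). The higher Ezh2 KO library lay between the Jarid2 KO libraries and the lower one below all others. Exact two-sided permutation tests over libraries gave p = 0.667 for Ezh2 KO against Control (a difference of -1.51 points), p = 1 for Jarid2 KO against Control (0.22 points) and p = 0.667 for Jarid2 KO against Ezh2 KO (1.73 points). With 2 libraries against 1 or 2, the smallest p that such a test allows is 0.333.

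The share depended on depth. With every cell thinned to 8000 UMIs, the share was 8.81% in Control, 9.51% and 11.0% in the Ezh2 KO libraries and 8.59% and 11.6% in those of Jarid2 KO, after 11.0% to 24.2% of kept cells had been left out as too shallow. The Ezh2 KO difference from Control then became 1.46 points, above 0, and that between the knockouts became -0.19 points. In male cells only, the differences from Control were -3.22 points in Ezh2 KO and -1.42 in Jarid2 KO. Baseline libraries had shares of 12.5% to 15.6%, below those after transplantation, but the thinned shares, 6.40% to 8.96%, overlapped with the transplant ones, and these libraries were counted with another software version. The share of B-lineage cells that were at G1/S, thinned, was 10.6% (8.27% to 13.3%) and 12.7% (9.74% to 16.1%) in Ezh2 KO, and 9.39% and 10.9% of the remaining cells of these libraries were. It was 6.90% (0.846% to 22.8%) against 8.83% of the rest in Control, and 6.85% (2.26% to 15.3%) and 8.55% (4.17% to 15.2%) against 8.62% and 11.7% in Jarid2 KO, so in all 5 libraries the interval held the share of the rest. The last 3 shares rest on 29, 73 and 117 B-lineage cells. In all 6 baseline libraries the B-lineage share was the higher one, 8% to 11.6% against 5.87% to 8.91% of the rest.

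**Figure D2:**
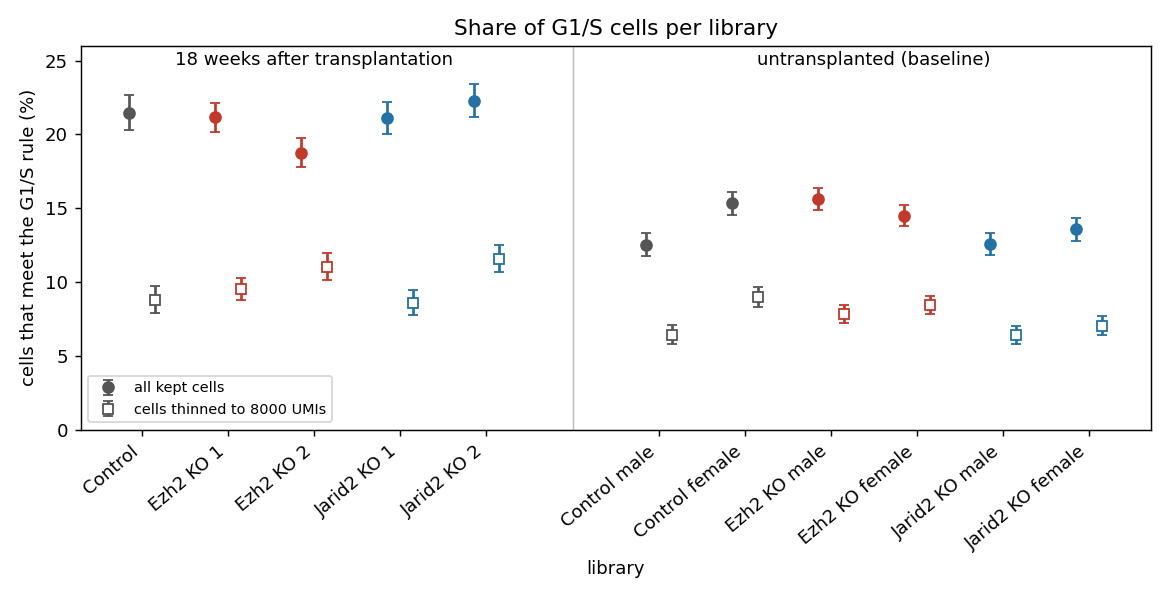
Share of kept cells that meet the G1/S rule in each of 11 libraries (grey Control, red Ezh2 KO, blue Jarid2 KO), for all kept cells (filled circles) and for cells thinned to 8000 UMIs (open squares), with exact binomial 95% intervals. Filled points span 18.8% to 22.3% after transplantation and 12.5% to 15.6% at baseline, and thinning lowers every point.

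Within the G1/S cells, no gene of the replication machinery passed the test between genotypes with all libraries. Counts were summed over the G1/S cells of each library and tested with edgeR's quasi-likelihood method across 13659 genes, with Benjamini-Hochberg adjusted p-values (false discovery rate, FDR) and a threshold of 0.05. The spread of Control, with 1 library, was not measured: it was assumed to vary like the knockouts, whose replicates differed by a chi-square per degree of freedom of 29.1 in Ezh2 KO and 83.9 in Jarid2 KO. Every call against Control rests on that assumption. Of 86 genes of licensing, fork, nucleotide synthesis and checkpoint (genes of the rule left out), 0 were called in each of the 3 contrasts by edgeR and 0 by DESeq2. Without Ezh2 KO 1, 1 gene of the replication fork list was called higher in Jarid2 KO than in Ezh2 KO. At baseline 3 of 16 nucleotide synthesis genes and 1 of 26 fork genes were called lower in Jarid2 KO than in Ezh2 KO, and 1 nucleotide synthesis gene was called higher in Ezh2 KO than in Control. Of all 14935 genes tested there, 440 were called lower in the former contrast and 314 higher in the latter. At an unadjusted p under 0.05 edgeR had 1, 0 and 1 of the 86 transplant genes for Ezh2 KO against Control, Jarid2 KO against Control and Jarid2 KO against Ezh2 KO. Among all 13659 genes 1742, 972 and 2939 had such a p. At the FDR threshold the share called among all genes was 1.71%, 0.00732% and 7.29%. The median log2 fold change of the 86 genes was 0.05, -0.02 and -0.07, against 0.01, 0.00 and 0.00 over all genes, and 90% of them lay between -0.17 and 0.24, between -0.28 and 0.17 and between -0.22 and 0.09. The median standard error was 0.14, 0.14 and 0.11 on the log2 scale. A choice of cells on correlated genes can narrow such differences, so these values hold for cells at a matched stage.

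Single genes show the same spread. Pcna stood at 398 CPM in Control, at 499 and 411 in Ezh2 KO and at 389 and 445 in Jarid2 KO. Mcm2 stood at 140 CPM in Control, at 159 and 151 in Ezh2 KO and at 139 and 173 in Jarid2 KO. Rrm2 stood at 134 CPM in Control, at 135 and 145 in Ezh2 KO and at 127 and 164 in Jarid2 KO. For these genes the knockout libraries overlapped each other. Mki67 ran from 172 to 257 CPM over the 5 libraries and Ccnd1 from 64.1 to 95.8, with edgeR FDR of 0.151 or more in every contrast for the cyclin. Genes of G2 and mitosis had 0 of 25 called in each contrast by edgeR and by DESeq2 (1, 5 and 6 at an unadjusted p under 0.05), with medians of -0.07, -0.22 and -0.20.

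Cyclin E1 was the 1 called gene among 24 of G1 cyclins, kinases and E2F, between the knockouts, where 7.29% of all genes were called. In this contrast 3 of the 24 were called lower with at least 4 markers, 4 in the other kept cells and 4 at baseline. Over all genes 752 of 14001, 1182 of 15490 and 440 of 14935 were called lower there. Ccne1 stood at 19.9 and 21.7 CPM in Ezh2 KO and at 14.6 and 15.6 in Jarid2 KO, with Control at 16.1. The knockout libraries did not overlap, and the log2 difference of Jarid2 KO from Ezh2 KO was -0.44 (SE 0.09, edgeR FDR 0.0401). It lost the call in 9 of 16 alternative analyses, among them DESeq2 and the removal of any 1 knockout library. Ccne2 ran from 32.8 to 45.5 CPM with overlapping groups. The inhibitor Cdkn1a stood at 22.0 CPM in Control, at 23.5 and 35.4 in Ezh2 KO and at 26.9 and 27.8 in Jarid2 KO, and was not called (edgeR FDR 0.619 to 0.871).

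**Figure D3:**
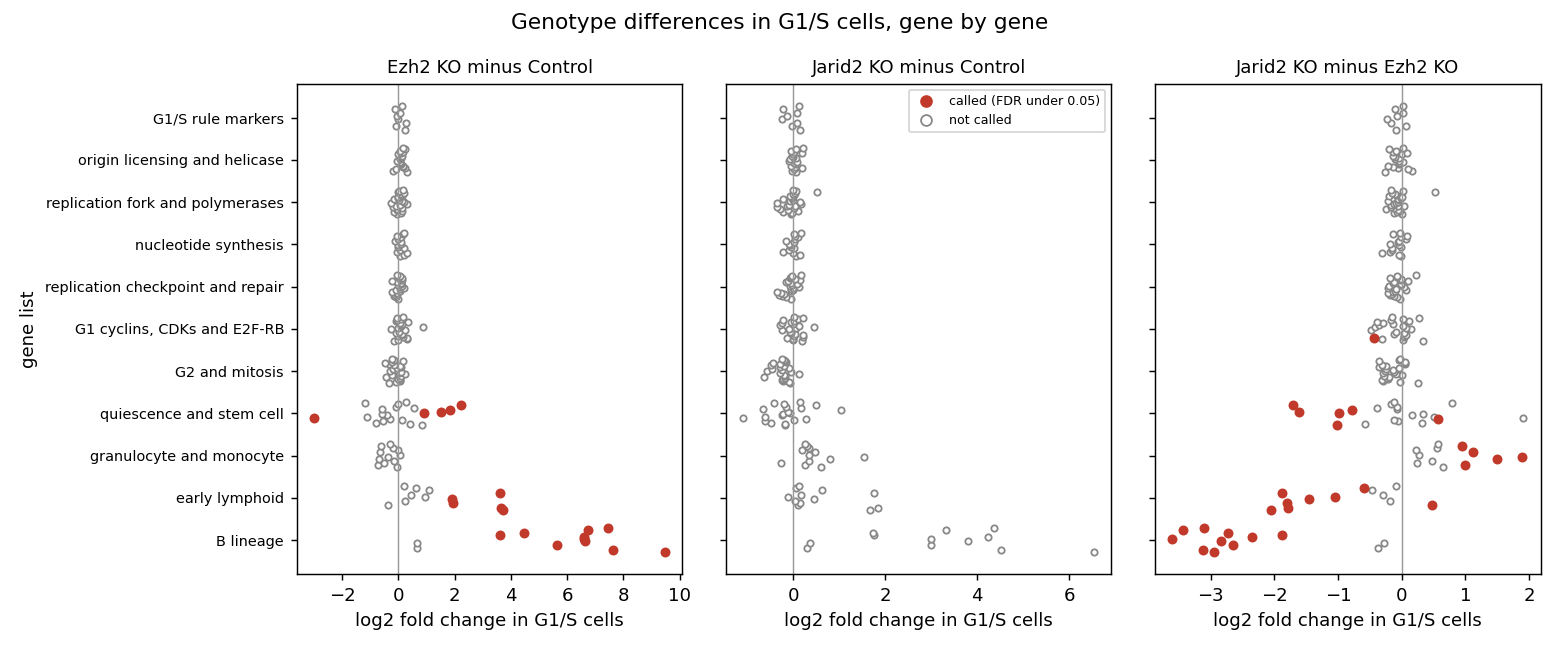
Log2 fold change of each tested gene of 11 lists in G1/S cells for the 3 contrasts (1 panel each, scales differ), with genes called at FDR under 0.05 in red and the others open. Points of the replication lists lie close to 0 in all panels, while called genes gather in the lymphoid lists, and the farthest B-lineage point belongs to a gene with 0 counts in Control, so its place there is no measured size.

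Genes outside the replication lists were called between Ezh2 KO and Control. As 1.71% of all genes were called, the lack of calls among 86 replication genes does not set these apart. Ezh2 itself checked the labels: it stood at 212 CPM in Control, at 46.2 and 54.3 in Ezh2 KO and at 213 and 222 in Jarid2 KO. Both Ezh2 KO libraries were below all others, and the log2 change against Control was -2.15 (SE 0.14, edgeR FDR 0.0011). Of 6 core PRC2 genes Ezh2 alone was called, and 0 of 8 accessory genes were called against Control by edgeR or DESeq2 (1 at an unadjusted p under 0.05). In all, 234 of 13659 genes were called in Ezh2 KO against Control, 167 higher (1.22%) and 67 lower (0.491%). The count moved with single libraries: it was 89 without Ezh2 KO 1 and 48 without Ezh2 KO 2, and 436 and 479 without Jarid2 KO 1 and 2, which only lend their spread. In male cells only it was 72, with 208 male G1/S cells in Control against 1120 and 867 in Ezh2 KO.

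Genes that PRC2 is known to silence were among those that rose in Ezh2 KO G1/S cells. Hmga2, a chromatin protein of fetal stem cells, stood at 7.30 CPM in Control, at 57.4 and 55.9 in Ezh2 KO and at 17.7 and 18.0 in Jarid2 KO. The Ezh2 KO libraries were above all others, and the log2 change against Control was 2.88 (SE 0.15, edgeR FDR 0.000677). Mab21l2, a gene of eye and body-wall development, had 3 counts in Control (0.146 CPM) and stood at 25.7 and 26.6 CPM in Ezh2 KO. Its ratio was 179, with an exact counting interval of 61.0 to 867. In Jarid2 KO it was at 0 and 0.160 CPM. Cdkn2a, which encodes the inhibitors p16 and p19Arf, had 0 counts in Control and stood at 2.84 and 3.14 CPM in Ezh2 KO, at least 20.3-fold higher against a floor of 3 counts. Its edgeR call was lost in male cells only and without Ezh2 KO 2 (FDR up to 0.155).

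Of 10 tested among 26 developmental Polycomb targets, 4 rose in Ezh2 KO (median log2 0.87, against 0.01 over all genes), 1 in male cells only and 2 without Ezh2 KO 2. They were Mab21l2, the receptor gene Gfra2, the homeobox gene Hoxa10 and Tmem108. The low-count filter asked for enough counts in as few libraries as the smallest group has, that is 1. A gene high in Ezh2 KO alone could thus enter the 10, while targets silent in every group could not. The share that rose and the list median are therefore partly set by the filter. Hoxa10 stood at 5.50 CPM in Control, at 14.4 and 14.8 in Ezh2 KO and at 6.19 and 6.44 in Jarid2 KO. Among 6 fetal genes tested, which had passed the same filter, Hmga2 was the 1 that rose (list median 0.85). Lin28b, an RNA-binding protein of fetal progenitors, was at 0 in Control and both Jarid2 KO libraries and at 0.536 and 0.601 CPM in Ezh2 KO, without a call against Control (FDR 0.137).

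Other genes that rose, named among calls with a mean of at least 10 CPM and groups that do not overlap, have no list of their own. Bex4 stood at 3.55 CPM in Control, at 36.7 and 35.0 in Ezh2 KO and at 0.676 and 0.880 in Jarid2 KO. Auts2, which associates with a variant Polycomb complex, stood at 8.18 CPM in Control, at 65.6 and 59.6 in Ezh2 KO and at 11.8 and 11.7 in Jarid2 KO. Bfsp2, which encodes a lens filament protein, stood at 4.92 CPM in Control, at 55.7 and 53.6 in Ezh2 KO and at 6.12 and 8.04 in Jarid2 KO. In all 3 genes both Ezh2 KO libraries lay above every other library. Auts2, Bex4, Bfsp2, Ezh2, Hmga2, Mab21l2 and Vpreb3 were the 7 of 40 named calls against Control that held in every alternative analysis. For Vpreb3 and other B-lineage genes the run without B-lineage cells is no test, since these genes chose the cells. Cd79a, Ebf1, Igll1, Mzb1 and Vpreb1 lost the call in that run alone. Blnk and Ly6d, which did not choose the cells, also lost it in that run alone.

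Genes of stem cells moved in both directions in Ezh2 KO G1/S cells. Of 20 such genes 4 rose and 1 fell (median log2 -0.05), where 1.22% of all genes rose and 0.491% fell. By DESeq2 4 rose and 3 fell, and without the low-count filter 4 rose and 4 fell. Hoxb5, the 1 that fell by edgeR, was not called by DESeq2. Mycn, a Myc family factor that promotes growth and division, stood at 5.21 CPM in Control, at 20.1 and 18.5 in Ezh2 KO and at 11.3 and 10.9 in Jarid2 KO. Its log2 change was 1.82 (SE 0.18, edgeR FDR 0.00588), and it was the 1 of 10 Myc family genes called. Socs2, a brake on cytokine signalling, and Mllt3, a stem cell maintenance factor, rose as well, while Hoxb5 fell from 1.31 CPM to 0.158 and 0.185. No call of this list was kept in male cells only or without Ezh2 KO 2.

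**Figure D4:**
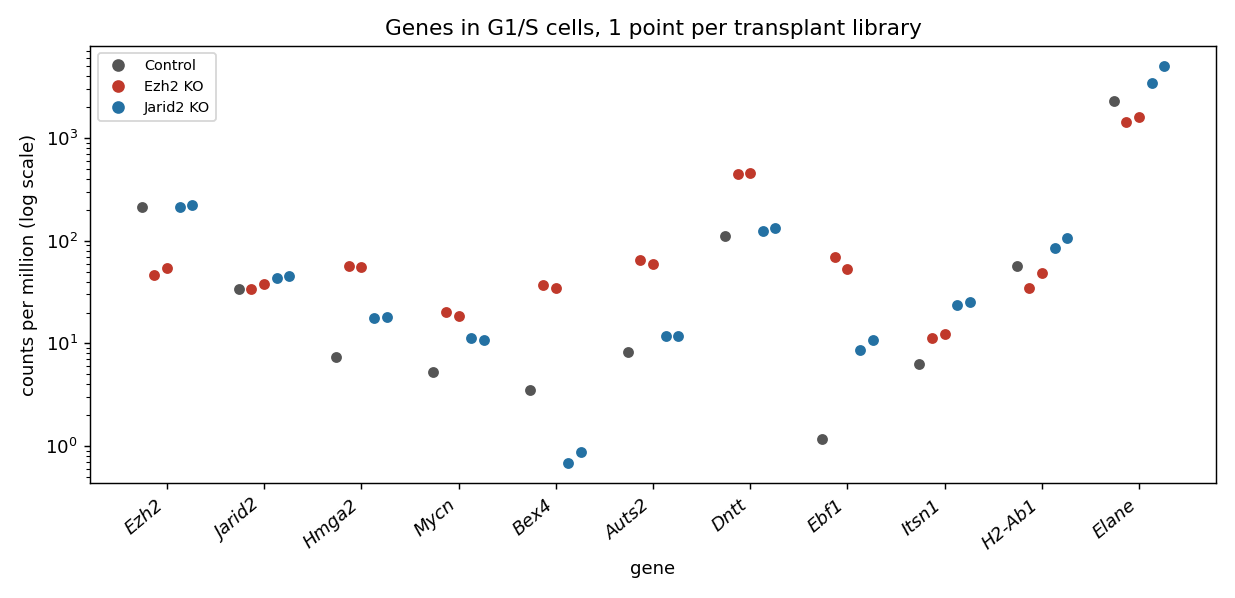
CPM (log axis) of 11 genes in G1/S cells, with 1 point per transplant library (grey Control, red Ezh2 KO, blue Jarid2 KO). Ezh2 KO points lie lowest for Ezh2 and highest for Hmga2, Mycn, Bex4, Auts2, Dntt and Ebf1, and Jarid2 KO points lie highest for Itsn1, H2-Ab1 and Elane.

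B-lineage genes rose together in Ezh2 KO G1/S cells. Of 12 B-lineage genes 10 were called higher, and the list median was 6.60 on the log2 scale (6.12 with genes at 0 in Control set to their bound) against 0.01 over all genes. Ebf1, the factor that commits cells to the B lineage, stood at 1.17 CPM in Control, at 68.8 and 53.2 in Ezh2 KO and at 8.61 and 10.8 in Jarid2 KO (log2 5.63, SE 0.30, edgeR FDR 0.000806). Cd79a, the signalling chain of the B cell receptor, stood at 0.292 CPM in Control, at 68.3 and 56.3 in Ezh2 KO and at 5.16 and 9.16 in Jarid2 KO. The naming rule required that Ezh2 KO and Control not overlap for these genes. Jarid2 KO lay between them.

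The surrogate light chain, with which the pre-B cell receptor is assembled, followed the same order. Vpreb3 stood at 0.341 CPM in Control, at 71.6 and 55.3 in Ezh2 KO and at 7.26 and 7.40 in Jarid2 KO. Igll1 stood at 0.389 CPM in Control, at 47.1 and 34.9 in Ezh2 KO and at 4.73 and 6.80 in Jarid2 KO. Vpreb1 and Vpreb2 are near-identical copies whose reads may be split by the counting, so their values are uncertain: Vpreb1 stood at 3.21 CPM in Control and at 83.6 and 65.0 in Ezh2 KO, and Vpreb2 had 2 counts in Control against 624 in Ezh2 KO. Mzb1, a chaperone of immunoglobulin secretion, stood at 0.292 CPM in Control and at 31.7 and 28.6 in Ezh2 KO. Ly6d, a marker of B-biased lymphoid progenitors, stood at 5.89 CPM in Control and at 39.3 and 42.7 in Ezh2 KO. It is not on the B-lineage list, and its log2 change was 2.73 with all G1/S cells. When the B-lineage cells were left out, that change was 0.40, without a call.

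Genes of earlier lymphoid progenitors rose too, where 1.22% of all genes tested rose and the median over all genes was 0.01. Of 12, 5 rose and none fell (list median 1.01), 4 in male cells only and 1 without Ezh2 KO 2. Dntt, the polymerase that adds bases at antigen-receptor joints, stood at 112 CPM in Control, at 451 and 460 in Ezh2 KO and at 126 and 132 in Jarid2 KO (log2 1.95, SE 0.16, edgeR FDR 0.00259). Rag1, which cuts the antigen-receptor genes, stood at 0.438 CPM in Control, at 5.55 and 5.97 in Ezh2 KO and at 1.21 and 1.92 in Jarid2 KO. Rag1 is in both lymphoid lists. Blnk, an adaptor of pre-B cell receptor signals, and Ccr9, a homing receptor of lymphoid progenitors, were also called higher. Without the B-lineage cells 2 early lymphoid genes were called higher, and 2 at a mean of at least 10 CPM. Over all genes 116 of 13525 and 57 of 7936 were called higher there, and 54 of 12231 in male cells only. Blnk changed by 3.73 on the log2 scale with all G1/S cells and by 0.73, without a call, when the B-lineage cells were left out.

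The number of G1/S cells with B-lineage genes moved with these levels. Cells with at least 3 of the 12 genes made up 3.00% of G1/S cells in Control, 22.2% and 16.6% in the Ezh2 KO libraries and 6.35% and 6.38% in those of Jarid2 KO. At 8000 UMIs per cell they made up 0.597% in Control, 11.6% and 10.8% in the Ezh2 KO libraries and 1.30% and 1.81% in those of Jarid2 KO. The other kept cells gave 0.779%, 10.3% and 9.22%, and 1.66% and 2.54%. As a background, cells with at least 5 megakaryocyte genes met the B-lineage rule in 0% to 1.59% per library at the same depth. They numbered 20 to 63 per library, and the share was above 0% in Ezh2 KO 1 alone. Their medians before thinning were 12125 to 17171 UMIs, against 16169 to 23492.5 in the cells that met the G1/S rule at 8000 UMIs. More B-lineage cells and more RNA per cell cannot be told apart in summed counts. Without the B-lineage cells 170 genes were called in all in place of 234. The B-lineage genes chose those cells, so their own changes without them are not given.

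**Figure D5:**
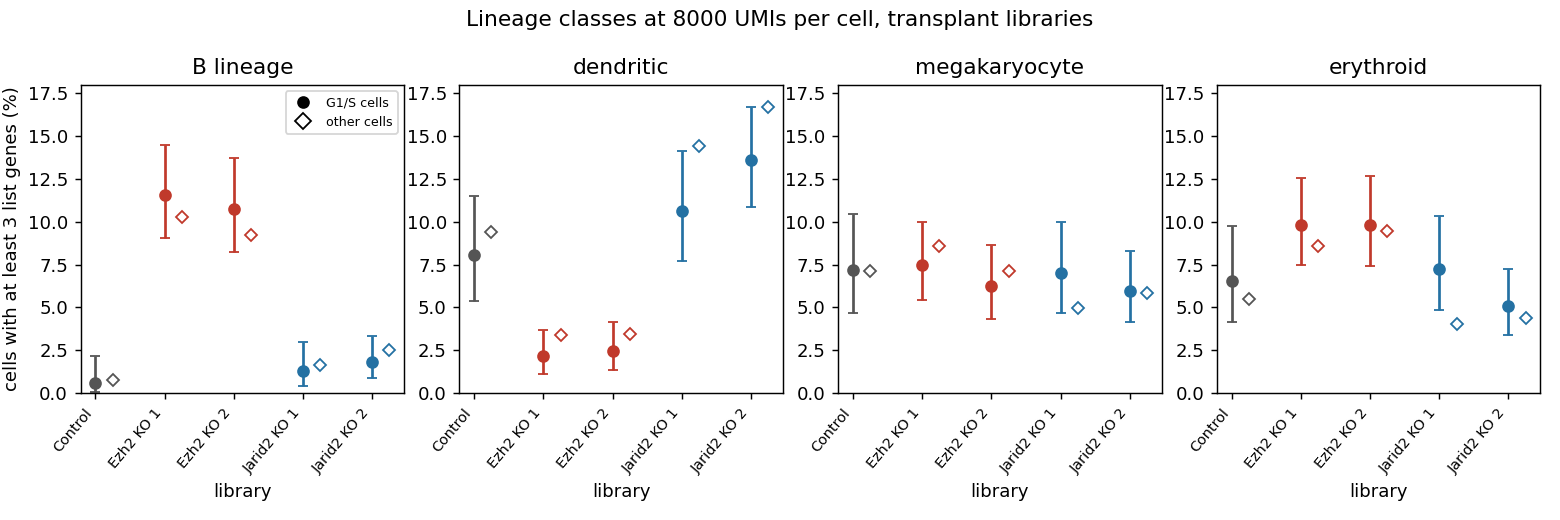
Share of cells with at least 3 genes of a lineage list at 8000 UMIs per cell, in G1/S cells (filled circles, exact binomial 95% intervals) and in the other kept cells (open diamonds) of each transplant library, for 4 lineages. The B-lineage share is 11.6% and 10.8% in Ezh2 KO G1/S cells and 0.597% to 1.81% in those of the other groups, and the dendritic share is lowest in Ezh2 KO.

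Ezh2 KO G1/S cells with fewer than 3 B-lineage genes differed from Control too. They still included cells with exactly 2 of these genes, 420 of all 1404 and 333 of all 1186 G1/S cells, against 248 of 1001 in Control. In Jarid2 KO such cells numbered 417 of 1150 and 465 of 1206. Hmga2 stood at 56.9 and 53.5 CPM in Ezh2 KO G1/S cells without the B-lineage cells and at 59.1 and 67.5 in the B-lineage ones, against 6.91 CPM in Control without them. Dntt stood at 305 and 333 CPM in the cells below 3 genes and at 964 and 1086 in the B-lineage ones, against 105 in Control. Granulocyte RNA was also counted in the droplets of B-lineage G1/S cells of Ezh2 KO, where Mpo stood at 1777 and 1549 CPM, against 2726 and 2780 in the remaining G1/S cells. At 8000 UMIs at least 3 granulocyte genes were found in 93.8% and 98.2% of these B-lineage cells and in 98.4% and 97.5% of cells with at least 5 megakaryocyte genes, and the part of free RNA was not tested. Ezh2 stood at 57.5 and 62.8 CPM in the B-lineage G1/S cells and at 43.0 and 52.6 in the rest.

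Among calls with a mean of at least 10 CPM and groups that do not overlap, those named as lowest in Ezh2 KO G1/S cells, Ezh2 aside, had varied roles. Cd68, a lysosomal protein of macrophages, stood at 15.4 CPM in Control, at 5.20 and 6.43 in Ezh2 KO and at 12.1 and 13.4 in Jarid2 KO (log2 -1.49, SE 0.15, edgeR FDR 0.00626). Itgam, the integrin CD11b that the lineage depletion targets, stood at 17.4 CPM in Control and at 7.79 and 6.71 in Ezh2 KO (-1.32, FDR 0.0117). Cfp, properdin of the complement system, stood at 13.9 CPM in Control and at 5.30 and 5.64 in Ezh2 KO, and the chemokine gene Ccl9 at 178 and at 89.0 and 84.7. Mrgpra2b, Nav1, Apobr, Arid5b, Dmkn, Pcp4l1 and Selp fell by 1.06 to 1.43 on the log2 scale. That both Ezh2 KO libraries lay below Control was required for naming these genes and is no finding. All lost the call in at least 1 alternative, Cd68 only without Ezh2 KO 2.

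The granulocyte and monocyte list itself gave no call in Ezh2 KO against Control by edgeR (5 of 12 at an unadjusted p under 0.05), and 1 lower by DESeq2. Its median was -0.33. Without Jarid2 KO 1 or without Jarid2 KO 2, edgeR called 5 of the 12 lower, and in the other kept cells it called 4 lower. Elane stood at 2322 CPM in Control, at 1424 and 1608 in Ezh2 KO and at 3437 and 5075 in Jarid2 KO, with an edgeR FDR of 0.255 for Ezh2 KO against Control. Dendritic genes had 0 of 9 called by edgeR and by DESeq2 (2 at an unadjusted p under 0.05), but 3 were called lower by edgeR without Ezh2 KO 2. Of 19 interferon-response genes Oasl2 alone fell (-1.55, FDR 0.0174), a call lost without either Ezh2 KO library. The p53 targets had 0 of 15 called by both tools (5 at an unadjusted p under 0.05, list median 0.34), and 1 and 2 were called higher by edgeR without Jarid2 KO 1 and 2.

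Between Jarid2 KO and Control 1 gene passed the threshold, a call that depended on the spread of libraries outside the contrast. Itsn1, an endocytic scaffold protein (called in Ezh2 KO as well, at a log2 change of 0.85, FDR 0.037), stood at 6.28 CPM in Control, at 11.4 and 12.4 in Ezh2 KO and at 23.8 and 25.2 in Jarid2 KO. The log2 change was 1.91 (SE 0.14, edgeR FDR 0.0441). That is 1 of 13659 genes (0.00732%), with 0.00732% called higher and 0% lower, with 972 genes at an unadjusted p under 0.05 and 42 calls by DESeq2. The Itsn1 call was lost in male cells only, without Ezh2 KO 1 and without Ezh2 KO 2, where edgeR called 0 genes, while 30 and 22 were called without Jarid2 KO 1 and 2. The Ezh2 KO contrast uses the same Control library.

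Jarid2 RNA did not fall in Jarid2 KO. Jarid2 stood at 34.2 CPM in Control, at 33.8 and 37.9 in Ezh2 KO and at 43.8 and 45.8 in Jarid2 KO (log2 0.33 against Control, SE 0.12, edgeR FDR 0.645). A tag at the 3′ end of a transcript does not check a deletion elsewhere in the gene, and which exons were deleted is not given in the sources used here. Hmga2 and Mycn lay above Control in both Jarid2 KO libraries (1.24, FDR 0.0609, and 1.04, FDR 0.187) without passing the threshold. All 12 B-lineage genes had an unadjusted p under 0.05 (list median 3.16), 0 were called by edgeR and 7 were called higher by DESeq2. By edgeR 5 were called higher without Jarid2 KO 1, 5 without Jarid2 KO 2 and 6 without predicted doublets. The cell share that goes with them is given above, 1.30% (5 of 386) and 1.81% (10 of 552) at 8000 UMIs against 0.597% (2 of 335) in Control. The background from cells with megakaryocyte genes was 0% in the Jarid2 KO libraries (20 and 23 cells) and in Control (28 cells). So few cells cannot say whether the share exceeds the background. Before thinning, 61 of 73 and 59 of 77 such cells in Jarid2 KO and 26 of 30 in Control had exactly 3 of the genes.

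The most calls came from the knockouts against each other. There 996 genes were called between Jarid2 KO and Ezh2 KO, 357 higher (2.61%) and 639 lower (4.68%) in Jarid2 KO. The comparison has 2 libraries on each side and the only direct estimate of spread in both. Control has 1 library, so the counts of calls do not rank the contrasts by the size of their differences. Without Ezh2 KO 1 the count was 306 and without Ezh2 KO 2 it was 213. The male-only count was 582. Ezh2 rose (log2 2.13, SE 0.12, edgeR FDR 0.000411), and Epop, an accessory PRC2 subunit, fell from 30.6 and 26.7 CPM in Ezh2 KO to 13.5 and 17.2 in Jarid2 KO, a call lost without Ezh2 KO 1.

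Some granulocyte and monocyte genes were higher in Jarid2 KO G1/S cells than in those of Ezh2 KO. Of 12, 5 rose and none fell (list median 0.61, against 0.00 over all genes), and 2 were called without Ezh2 KO 1, 0 without Ezh2 KO 2 and 9 without Jarid2 KO 1. Elane rose by 1.5 on the log2 scale (SE 0.20, edgeR FDR 0.00801), and groups that do not overlap were a condition for naming it among the highest. Ly6c2, a surface protein of monocytes, stood at 87.0 and 88.6 CPM in Ezh2 KO and at 171 and 206 in Jarid2 KO. Csf1r, the receptor that drives monocyte formation, stood at 9.49 and 10.5 CPM against 20.4 and 19. Fcnb, a ficolin of granulocytes, was higher at low levels, 3.13 and 3.00 CPM against 0.946 and 0.694 in Ezh2 KO. The ribosomal protein share of UMIs in Jarid2 KO 2 was the lowest of the 5 libraries, and without that library 6 of these genes were called.

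Among the highest calls with a mean of at least 10 CPM and outside the lists, C3, the central complement protein, stood at 8.45 and 6.15 CPM in Ezh2 KO and at 20.7 and 27.1 in Jarid2 KO. Gstm1, Mrgpra2b and Wfdc21 rose by 1.24, 1.81 and 2.38 on the log2 scale. Of 9 genes of the dendritic list 2 rose and 1 fell, while 4 rose and 0 fell without Ezh2 KO 2. H2-Ab1, a class II histocompatibility chain, stood at 34.5 and 49.0 CPM in Ezh2 KO and at 85.6 and 107 in Jarid2 KO, with Control between them at 56.8 (log2 1.22, SE 0.16, FDR 0.00748). H2-Eb1 stood at 1.45 and 7.08 against 22.5 and 29.7 CPM, and its call was lost with DESeq2. Siglech, which marks plasmacytoid dendritic cells, was the 1 that fell, from 1.73 and 1.29 to 0.107 and 0.280 CPM, a call lost without either Ezh2 KO library, without B-lineage cells (log2 -1.63 against -2.98, edgeR FDR 0.171) and with at least 6 markers.

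The share of cells with dendritic genes followed the order of H2-Ab1, which is on the list that counts them, so it is no separate finding. Siglech, also on that list, went the other way between the knockouts. Cells with at least 3 genes of the dendritic list made up 17.6% of G1/S cells in Control, 7.76% and 6.83% in the Ezh2 KO libraries and 23.5% and 25.5% in those of Jarid2 KO. At 8000 UMIs they made up 8.06% in Control, 2.14% and 2.46% in the Ezh2 KO libraries and 10.6% and 13.6% in those of Jarid2 KO, and the order was the same in the other kept cells. Prg2, a granule protein of eosinophils, stood at 23.5 and 147 CPM in the Jarid2 KO libraries and at 0.832 to 5.11 elsewhere. Its call was lost without either Ezh2 KO library, in male cells only, at a mean of at least 10 CPM and with a replicate block. Igkc, the kappa light chain, ran from 0.0925 and 1.32 CPM in Ezh2 KO to 15.1 and 25.9 in Jarid2 KO, at 8.57 in Control. It is an abundant transcript of mature B and plasma cells, and the part of free RNA in its level was not tested.

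Genes of the lymphoid and developmental lists were among those lower in Jarid2 KO than in Ezh2 KO, as were some of the stem cell list. Of 12 B-lineage genes 10 fell, of 12 early lymphoid genes 7 fell and 1 rose, of 20 stem cell genes 5 fell and 1 rose, and of 10 developmental targets tested 5 fell. Over all genes tested 4.68% fell and 2.61% rose. The list medians were -2.78, -0.82, -0.09 and -0.77. For the developmental targets the share and the median are partly set by the low-count filter, which a gene high in Ezh2 KO alone could pass. Of the stem cell genes 3 fell and 0 rose without Ezh2 KO 1, and likewise without Ezh2 KO 2, while at baseline 6 of the 20 were higher and 1 was lower in Jarid2 KO. Of the early lymphoid genes 4 fell without Ezh2 KO 2. Without the B-lineage cells 780 genes were called in all, and 4 early lymphoid genes fell. Blnk then changed by -0.21 in place of -2.06 and Socs2 by -0.84 in place of -1.71, both without a call. With all G1/S cells Dntt fell by 1.80 on the log2 scale (SE 0.12, edgeR FDR 0.000708). Mllt3 fell from 27.9 and 31.5 CPM in Ezh2 KO to 14.4 and 15.1 in Jarid2 KO.

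Several genes stood below Control in Jarid2 KO and above it in Ezh2 KO. Bex4 fell between the knockouts by 5.51 on the log2 scale (SE 0.15, edgeR FDR 6.26e-05). Bex1, its relative, stood at 8.42 CPM in Control, at 38.9 and 43.9 in Ezh2 KO and at 3.73 and 4.20 in Jarid2 KO. Pbx3, a cofactor of Hox proteins, stood at 12.3 CPM in Control, at 38.7 and 40.7 in Ezh2 KO and at 5.97 and 5.52 in Jarid2 KO. Ncam1, an adhesion protein, stood at 4.87 CPM in Control, at 26 and 26.1 in Ezh2 KO and at 3.91 and 3.60 in Jarid2 KO. For each the knockouts did not overlap, as the naming rule required, and Control lay between them. None was called against Control in Jarid2 KO (edgeR FDR 0.0597 for Bex4, 0.0678 for Bex1, 0.0799 for Pbx3 and 0.704 for Ncam1).

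Genes of other lineages fell in Jarid2 KO relative to Ezh2 KO as well. Of 7 basophil and mast cell genes 4 fell, of 9 erythroid genes 3, of 11 megakaryocyte genes 3, of 19 interferon genes 5 and of 15 p53 targets 4. Over all genes tested 4.68% were called lower. Without Ezh2 KO 1 and without Ezh2 KO 2 the first 3 counts became 3 and 2, 1 and 2, and 1 and 1, and the basophil and mast cell count was 0 at a mean of at least 10 CPM. In male cells only 1 basophil and mast cell gene and 1 megakaryocyte gene fell, and DESeq2 called 1 megakaryocyte gene. At baseline the 11 megakaryocyte genes were all above 0 (median log2 0.27), with 1 called higher in Jarid2 KO. Fcer1a, the high-affinity receptor for immunoglobulin E, stood at 5.16 CPM in Control, at 8.51 and 8.51 in Ezh2 KO and at 0.605 and 1.16 in Jarid2 KO. Hbb-bt, a beta globin, stood at 14.9 CPM in Control, at 38.4 and 75.2 in Ezh2 KO and at 7.40 and 4.08 in Jarid2 KO. Globin copies share sequence, so that split is uncertain. For the interferon and p53 lists, without Ezh2 KO 1 and without Ezh2 KO 2 none of either list was called by edgeR, where 11 and 6 had an unadjusted p under 0.05 with all libraries (DESeq2 called 3 and 3 lower). Cdkn1c (p57), an inhibitor tied to quiescence, fell from 7.13 and 7.91 CPM to 3.38 and 4.00, and lost the call without either Ezh2 KO library.

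The difference between genotypes itself differed between G1/S cells and all other kept cells (G2/M cells included) for few genes. In those 22538 cells 775, 59 and 1861 genes were called for Ezh2 KO against Control, Jarid2 KO against Control and Jarid2 KO against Ezh2 KO, from more cells and 15490 genes. A term for the difference between the classes, with the library as a block, called 24 of 14989 genes (0.16%), 9 (0.06%) and 93 (0.62%). Of the 16 genes of the rule, whose levels it limits, 0, 1 and 2 are among these. Of these calls 17 of 24 were higher in the Ezh2 KO contrast (12 of 20 with relative log expression scaling), and 38 of 93 between the knockouts (54 of 97). Hmga2 changed by 2.88 in G1/S cells and by 2.82 in the other cells, Mycn by 1.82 and 2.08, and Ezh2 by -2.15 and -2.17. Pf4, a platelet chemokine, stood at 45.4 CPM in Control G1/S cells against 16.3 in the other Control cells, and at 35.0 and 31.8 against 36.1 and 24.4 in Ezh2 KO. Without the B-lineage cells of both classes the counts were 141, 29 and 218. By DESeq2 they were 6, 3 and 5, and in male cells only 7, 1 and 18. They also moved with single libraries: without Ezh2 KO 1 they were 63, 69 and 165, without Ezh2 KO 2 they were 90, 65 and 130, without Jarid2 KO 1 they were 38, 11 and 58, and without Jarid2 KO 2 they were 117, 49 and 133.

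Baseline cells of the same rule gave a comparison that the choice of the transplant cells did not use. With sex as a term, edgeR called 398 of 14935 genes in Ezh2 KO against Control (2.66%), 42 in Jarid2 KO against Control (0.281%) and 575 between the knockouts (3.85%). Of the 234 genes called in Ezh2 KO after transplantation, 88 were called at baseline, all 88 in the same direction, which is 37.6% of the transplant calls and 22.1% of the baseline calls. Between the knockouts 211 genes were called in both, 194 of them in the same direction (19.5% of 996 and 33.7% of 575) and the others in opposite directions, and for Jarid2 KO against Control none was shared. Without the sex term the baseline counts were 17, 1 and 14. Single libraries moved them: between the knockouts 82 genes were called without male Jarid2 KO, 227 without female Jarid2 KO, 356 without male Ezh2 KO, 1363 without female Control and 1596 without male Control. In Ezh2 KO against Control 765 were called without male Control, and in Jarid2 KO against Control 21 and 23 without male and female Jarid2 KO and 135 to 374 without any other library.

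Several genes named above were compared at baseline. Ezh2 stood at 316 and 297 CPM in baseline Control (male and female), at 217 and 223 in Ezh2 KO and at 313 and 322 in Jarid2 KO, a log2 change of -0.44 in Ezh2 KO (edgeR FDR 0.00842). Hmga2 stood at 41.9 and 49.5 CPM in Control, at 114 and 125 in Ezh2 KO and at 56.7 and 84.7 in Jarid2 KO (1.43 in Ezh2 KO, FDR 0.000949). Cdkn2a stood at 0.307 and 0.129 CPM in Control and at 6.20 and 6.71 in Ezh2 KO. Ebf1 stood at 333 and 84.3 CPM in Control and at 738 and 326 in Ezh2 KO, so the sexes lay far apart and the groups overlapped, with an edgeR FDR of 0.0316 once sex was a term. B-lineage cells made up 12.7% of male and 3.47% of female Control G1/S cells at baseline, 33.3% and 17.1% of those of Ezh2 KO and 6.33% and 7.14% of those of Jarid2 KO.

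Ccne1 stood at 18.9 and 15.1 CPM in baseline Control, at 23.1 and 23 in Ezh2 KO and at 18.4 and 16.4 in Jarid2 KO. It was called between the knockouts there as well (-0.45, edgeR FDR 0.0345), and in Ezh2 KO against Control (0.49, FDR 0.0316). Mycn stood at 15.6 and 20.1 CPM in baseline Control, at 21.3 and 22.8 in Ezh2 KO and at 28.9 and 38.8 in Jarid2 KO. There it rose in Jarid2 KO against Control (0.92, FDR 0.0167), while its value in Ezh2 KO was 0.35 (FDR 0.12). Itsn1 stood at 65.9 and 36.4 CPM in baseline Control, at 59.2 and 49.4 in Ezh2 KO and at 98.0 and 101 in Jarid2 KO (1.02 against Control, FDR 0.0648). Elane ran from 19.9 to 118 CPM over the 6 baseline libraries. The experiments were counted with different software versions, so levels are not tested between them.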

How the data were processed

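Transcripts of sorted KSL cells were counted from 10x 3′ libraries. The deposited matrices hold raw UMI counts per gene and cell for 32285 genes, made with Cell Ranger 6.1.2 (transplant) and 7.2.0 (baseline) per the file headers, while the submitters' processing notes name Cell Ranger 3.1.0, Seurat 3.0 and the build mm10. Of 23 samples, 11 gene-expression libraries were used; antibody and H3K27me3 libraries were not analysed here. No doublet removal by the authors is recorded in the sources used here.

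Counts were summed over G1/S cells per library (20543497 to 31718589 UMIs after transplantation) and tested in edgeR 4.0.16 (quasi-likelihood, TMM, filterByExpr, Benjamini-Hochberg FDR 0.05; R 4.3.3, limma 3.58.1) over all 5 transplant libraries, with DESeq2 1.42.0 as an alternative. Standard errors are those of the log2 fold change. Baseline fits carried sex as a term. Shares have exact binomial 95% intervals and exact permutation tests over libraries. Predicted doublets (Scrublet in scanpy 1.11.5) were the top 0.8% per 1000 barcodes of each transplant library by score, since the automatic threshold marked 0 to 136 kept cells. They made up 5.20% to 7.21% of transplant G1/S cells. Doublets were not predicted in the baseline libraries. The scripts were tested on simulated data.

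The members, the 29 gene lists and the tests were chosen with earlier results of these data known. Genes were named by rule: Ezh2, Jarid2, the 16 rule genes, 11 fixed cycle genes, per contrast up to 12 highest and 12 lowest calls with a mean of at least 10 CPM and groups that do not overlap, up to 4 called genes per list, and up to 5 per class difference. Some genes that this rule names are not reported here. The replicate numbers shared by Ezh2 KO and Jarid2 KO are not known to pair the libraries, so they were not used as a block. Replicates differed beyond sampling noise, with a chi-square of 29.1 (Ezh2 KO) and 83.9 (Jarid2 KO) per degree of freedom over genes.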

Additional observations from a re-analysis of the deposited data

Results flagged for a closer look

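The 14 results below came from the test of whether a difference between genotypes itself differed between G1/S cells and the other kept cells (edgeR, with the library as a block). Each value is the log2 change in G1/S cells minus that in the other kept cells, and no cause was tested.

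Genes of B-lineage cells made up several of them. Mzb1, a chaperone of immunoglobulin secretion, gave 3.68 for Ezh2 KO against Control and -2.09 for Jarid2 KO against Ezh2 KO. In the other kept cells it stood at 5.01 CPM in Control, at 48.1 and 31.8 in Ezh2 KO and at 8.47 and 20.2 in Jarid2 KO, so Control differed between the cell classes (0.292 CPM in G1/S cells). Ighm, the heavy chain of IgM, gave 1.12 for Ezh2 KO against Control, -0.77 for Jarid2 KO against Control and -1.9 between the knockouts. In the other kept cells it stood at 254 CPM in Control, at 212 and 179 in Ezh2 KO and at 519 and 668 in Jarid2 KO. In G1/S cells it stood at 81.0 CPM in Control, at 134 and 135 in Ezh2 KO and at 101 and 117 in Jarid2 KO. Vpreb3 gave 0.81 and Igll1 0.71 between the knockouts, and Dntt gave -0.43 for Jarid2 KO against Control.

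The platelet chemokine gene Pf4 gave -1.33 for Ezh2 KO against Control and -1.28 for Jarid2 KO against Control. Control G1/S cells stood at 45.4 CPM and the other Control cells at 16.3, so a single library sets both values. Tmem158 gave -1.55 for Ezh2 KO against Control and 1.15 between the knockouts, with 16.4 and 18.0 CPM in G1/S cells of Ezh2 KO and 34.6 and 33.5 in the others. Apoe, an apolipoprotein, gave 0.52 for Ezh2 KO against Control. Ms4a6c gave 0.24 for Jarid2 KO against Control. Genes of the rule are left out.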

How the results depend on the processing

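Among alternatives for named genes, 2462 kept their side of the threshold and direction, 199 lost the call, 5 gained it and 0 changed direction. The share differences (main -1.51, 0.22 and 1.73 points for Ezh2 KO and Jarid2 KO against Control and for Jarid2 KO against Ezh2 KO) became 1.46, 1.27 and -0.19 with cells thinned to 8000 UMIs. In male cells only the first became -3.22 and the second -1.42, and without the G2/M limit the second became 1.78. None of these has a p that the number of libraries could bring below 0.333.

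Called genes in the same 3 contrasts (main 234, 1 and 996) numbered 451 and 52 in the first pair without a low-count filter, and 87 and 290 in the first and the last at a mean of at least 10 CPM. In male cells only they numbered 72, 0 and 582. Jarid2 KO against Control gave 42 by DESeq2, 13 without predicted doublets, 9 without B-lineage cells, 17 with at least 4 markers and 9 with at least 6. Leaving out 1 library gave 48 to 479, 0 to 30 and 213 to 1010, lowest in the last without Ezh2 KO 2. The replicate block gave 825 calls between the knockouts. As the deviations of equal numbers correlated at -0.12 over 13659 genes, a crossed replicate block, chosen after seeing the data, gave 1487 calls. The numbers are not known to pair the libraries.

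Differences between cell classes (main 24, 9 and 93) numbered 6, 3 and 5 by DESeq2, 82, 60 and 203 without a filter, 141, 29 and 218 without B-lineage cells, and 7, 1 and 18 in male cells only. Leaving out 1 library gave 38 to 117, 11 to 69 and 58 to 165. Baseline calls (main 398, 42 and 575) numbered 243, 75 and 355 by DESeq2, 17, 1 and 14 without the sex term and 1033, 316 and 1266 without a filter. Leaving out 1 library gave 323 to 765, 21 to 374 and 82 to 1596. Where a library was left out, fewer samples remained, and for the rest the cause was not tested. Depth limits genes below about 1 CPM, where the 20543497 Control UMIs hold few counts.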
